A study of Mus musculus with 6 samples.

Results

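Heat shock chaperones of the HSF1 programme were followed in the mouse hippocampal neuronal cell line HT22, exposed or not to aluminum (Al) maltolate, a complex in which maltolate keeps Al soluble at physiological pH. The set was given by gene symbol. It held 10 genes, Hsf1, Hspa1a, Hspa1b, Hspa8, Hsp90aa1, Hsp90ab1, Hsph1, Hspb1, Dnajb1 and Bag3, of 21878 genes listed, and all 10 were measured and passed the filter on low values. The comparison asked how inducible chaperones stood against constitutive ones. There were 6 libraries, 3 of control cells and 3 of Al-treated cells, the latter at 120 µM. Neither group carried a transgene or other genetic change beyond the immortalization of the line. The methods name a medium-only control and a maltol-only control and give 24 h for treatments, without saying which control or which time was used for sequencing. The sample titles name the groups by letters only, C and M, and the study's design text gives the groups as control and Al-treated in triplicate. All libraries came from 1 line, so p-values below measure the spread between cultures of that line.

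HSF1 is the transcription factor that turns on heat shock genes when unfolded protein accumulates in the cytosol. HSP70 chaperones bind exposed hydrophobic stretches of client proteins and work with J-domain proteins, which bring clients and trigger ATP hydrolysis, and with nucleotide exchange factors, which reset the cycle. HSP90 chaperones act later on nearly folded clients such as kinases and steroid receptors, and small heat shock proteins hold unfolded proteins without using ATP. Hspa1a, Hspa1b, Hsp90aa1, Hsph1, Hspb1, Dnajb1 and Bag3 are known as stress-inducible, whereas Hspa8 and Hsp90ab1 are made constitutively. HSF1 binds inverted repeats of nGAAn, the heat shock element.

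Promoter sequences of 6 of the 10 genes were matched in RefSeq windows on build GRCm38.p6, namely Hspa1a, Hspa1b, Hsph1, Hspb1, Bag3 and Dnajb1. No window was matched for Hsf1, Hspa8, Hsp90aa1 and Hsp90ab1. The 250 bases before the annotated start are shown for 4 inducible genes, because 2 of them are near-copies whose listed FPKM levels differ, Hspb1 had the largest change of the set, and Hsph1 holds TTCNNGAA in place of GAANNTTC here. Each is written 5′ to 3′ on the gene's strand and capitals mark GAANNTTC or TTCNNGAA. The windows lie at chr17:34972157-34972406 on the minus strand for Hspa1a, at chr17:34959239-34959488 on the minus strand for Hspa1b, at chr5:135887669-135887918 on the plus strand for Hspb1 and at chr5:149636337-149636586 on the minus strand for Hsph1.
Hspa1a: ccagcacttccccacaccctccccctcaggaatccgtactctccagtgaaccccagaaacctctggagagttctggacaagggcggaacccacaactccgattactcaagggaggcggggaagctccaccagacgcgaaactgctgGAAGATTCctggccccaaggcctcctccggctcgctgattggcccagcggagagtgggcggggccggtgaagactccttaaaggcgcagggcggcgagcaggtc
Hspa1b: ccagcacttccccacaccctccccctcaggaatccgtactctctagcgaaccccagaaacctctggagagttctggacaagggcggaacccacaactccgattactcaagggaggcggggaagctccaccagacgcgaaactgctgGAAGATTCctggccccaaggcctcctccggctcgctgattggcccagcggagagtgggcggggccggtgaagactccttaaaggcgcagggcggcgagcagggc
Hspb1: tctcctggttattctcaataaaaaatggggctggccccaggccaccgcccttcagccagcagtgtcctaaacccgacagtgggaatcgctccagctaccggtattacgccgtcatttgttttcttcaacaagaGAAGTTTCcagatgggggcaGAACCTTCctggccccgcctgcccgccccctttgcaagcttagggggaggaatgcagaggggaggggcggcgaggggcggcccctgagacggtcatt
Hsph1: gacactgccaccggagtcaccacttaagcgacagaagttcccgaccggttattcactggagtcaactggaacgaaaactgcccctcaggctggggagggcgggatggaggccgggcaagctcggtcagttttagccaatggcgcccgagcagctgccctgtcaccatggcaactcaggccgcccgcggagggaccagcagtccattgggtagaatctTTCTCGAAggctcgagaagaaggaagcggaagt

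The Hspa1a and Hspa1b windows were identical at 247 of 250 bases (98.8%). The substitutions, counted from 1 at the first printed base with the Hspa1a base first, were C44T, T47C and T249G. Both genes held GAAGATTC with its first base at -104 from the start site. Hspb1 held GAAGTTTC and GAACCTTC. Hsph1 held TTCTCGAA before the start and the 3-unit element TTCTGGAAAGTTC after it, and the latter contains a TTCNNGAA and a GAANNTTC that overlap. Bag3 held GAAGTTTC after its start, and neither of the Dnajb1 windows held a match. Over 32851 promoter windows of the same 300 bases, counting either strand since each 2-unit pattern is its own reverse complement, GAANNTTC was found in 7.86% and TTCNNGAA in 8.52%. The 3-unit patterns TTCNNGAANNTTC and its reverse complement GAANNTTCNNGAA were found in 0.320% and 0.310%. These matches describe letters in the windows and were not tested as binding sites.

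The reads behind the listed genes numbered between 21047143 and 44374061 per library, and were fewer in each Al library than in any control library. FPKM values (fragments per kilobase of exon, relative to the mapped reads of the library) were compared after a median-of-ratios scaling, which sets the middle of the genes equal between libraries. The scaling matters here. The median log2 change over the 12889 genes tested was 0.03 with it, -0.43 on FPKM as deposited and -0.72 when every library was scaled to the same sum (TPM), so each direction below is relative to the middle of the genes. Calls needed both a limma adjusted p below 0.05 and a log2 fold change beyond 0.58 in either direction. Of neuronal markers, 2 of 10 (Tubb3 and Eno2) reached a mean of 1 FPKM, Nefm and Snap25 were at 0 in all libraries, and the summed level of the 10 was 7.66 to 9.47 FPKM in control cells and 4.13 to 7.54 FPKM in Al-treated cells. Of 5 fibroblast markers 4 reached 1 FPKM, led by Col1a1 and Col1a2, with sums of 2011 to 3194 FPKM in control cells and 2469 to 3451 FPKM in Al-treated cells. These 2 genes carried the sums. The other 3 were lower in every Al library than in any control library: Pdgfra at 2.66 to 6.21 against 8.50 to 17.0 FPKM, Dcn at 1.24 to 2.29 against 3.77 to 13.4 FPKM, and Lum at 0 to 0.0723 against 0.162 to 1.48 FPKM. The labelled neuronal identity thus rests on few markers, and the part of these levels in the results was not tested. In bulk RNA, fewer cells that make a transcript and less of it per cell cannot be told apart.

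With the median-of-ratios scaling 4 of the 10 genes were called higher in Al-treated cells (Hspb1, Dnajb1, Bag3 and Hsp90ab1) against 25.5% of all genes tested, and none was called lower against 23.7%. At an unadjusted p under 0.05 in limma, with the same fold, the counts were also 4 and 0. The groups did not overlap on the scaled values for 6 of the 10, with 5 above and 1 below, against 68.1% of all genes. On FPKM as deposited, only Hspb1 and Dnajb1 were called higher and Hsf1 and Hspa1a were called lower, against 13.5% higher and 41.3% lower of all genes tested. With TPM only Hspb1 was called higher and 5 genes were called lower, against 8.85% and 52.2%, so the 5 lower stood near the background. Quantile normalization gave 3 genes higher and 1 lower, against 21.5% and 23.3%. Of the 7 inducible genes 3 were thus called higher with the median-of-ratios scaling, and of the 2 constitutive genes 1 was. Hspa1a and Hspa1b, the classical inducible HSP70 genes, were among the 4 with the lowest log2 fold changes of the set under that scaling.

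**Figure D1:**
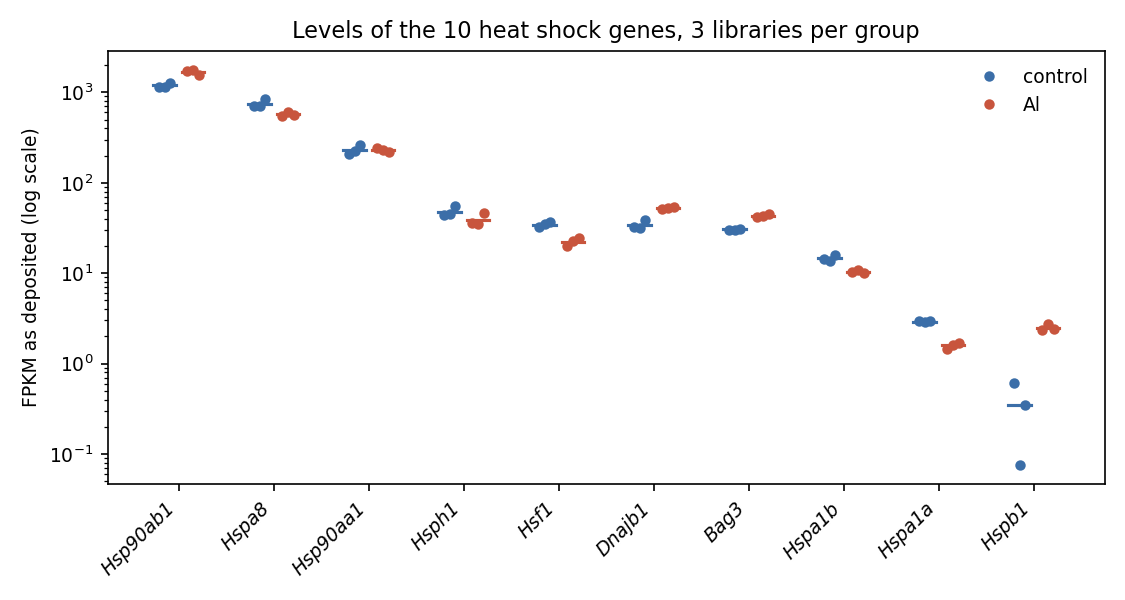
FPKM as deposited (log axis) of each gene in 3 control (blue) and 3 Al (red) libraries, with points for libraries and bars for group means. Levels run from Hsp90ab1, the highest in every library, to Hspb1, below 1 FPKM in every control library and above 2 FPKM in every Al library.

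Hsf1, the regulator itself (chr15:76477422-76501913, plus strand, GRCm38), had 32.1, 34.8 and 36.7 FPKM in control libraries and 19.8, 22.9 and 24.3 FPKM in Al libraries. The deposited values of the groups did not overlap, with Al lower. After scaling they overlapped, with a log2 fold change of -0.14 (SE 0.10, limma adjusted p = 0.24). The change was called lower on the deposited FPKM (-0.63) and with TPM (-0.93).

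Hspa1a and Hspa1b encode near-identical inducible cytosolic HSP70 proteins and lie side by side on chromosome 17. Hspa1a (chr17:34969190-34972156, minus strand) had 2.93, 2.89 and 2.94 FPKM in control libraries and 1.43, 1.62 and 1.71 FPKM in Al libraries. Its Al values were below every control value on both scales, but its log2 fold change of -0.38 (SE 0.15, limma adjusted p = 0.0555) did not pass the test. It rested on 312 to 367 reads per control library and 99 to 107 per Al library. Hspa1b (chr17:34956436-34959238, minus strand) had 14.3, 13.8 and 15.9 FPKM in control libraries and 10.3, 10.9 and 9.97 FPKM in Al libraries. These did not overlap as deposited and did after scaling, where the log2 fold change was -0.01 (SE 0.12, limma adjusted p = 0.95). With TPM both were called lower, at -1.13 for Hspa1a and -0.79 for Hspa1b.

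Beside the near-identical upstream bases printed above, the FPKM level of Hspa1b was 4.77 to 5.41 times that of Hspa1a in control libraries and 5.84 to 7.16 times in Al libraries, and the ranges did not overlap. The 2 transcripts share sequence: 46.0% of the 150-base windows of Hspa1a and 40.5% of those of Hspa1b occur exactly in a transcript of another gene, mainly each other, and Hspa1a also overlaps Gm20481 on the opposite strand by 2225 bases. How reads shared between copies were counted is not given in the sources used here, so the split between them is uncertain.

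Hspa8, the constitutive cytosolic HSP70 (chr9:40800984-40810087, plus strand), had 709, 699 and 845 FPKM in control libraries and 547, 606 and 560 FPKM in Al libraries. All Al values were lower than all control values as deposited, and the scaled values overlapped. The log2 fold change was 0.10 (SE 0.19, limma adjusted p = 0.67), and turned to -0.39 on the deposited FPKM, to -0.69 with TPM and to -0.99 with quantile normalization. It was called lower under the latter pair. Of its 150-base windows 56.0% occur in a transcript of another gene.

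The ratio of inducible to constitutive HSP70, computed within each library, does not depend on any scaling that divides a library by 1 factor, as the median of ratios and TPM do. Quantile normalization alters values by rank and does not keep such ratios. Hspa1a plus Hspa1b came to 2.43, 2.39 and 2.23% of Hspa8 in control libraries and to 2.14, 2.07 and 2.09% in Al libraries. The means were 2.35 ± 0.104% and 2.10 ± 0.0355% (SD, n = 3 each). The log2 difference was -0.16, and the groups did not overlap, but the exact two-sided permutation p was 0.1, which is the smallest that 3 against 3 can give and cannot pass 0.05. Taken alone, the log2 difference against Hspa8 was -0.49 for Hspa1a and -0.11 for Hspa1b. After quantile normalization the HSP70 difference turned to 0.97.

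Hsph1 encodes an HSP110 protein that acts as a nucleotide exchange factor of HSP70 (chr5:149614287-149636376, minus strand). Control libraries had 44.1, 44.6 and 54.8 FPKM and Al libraries 35.6, 34.9 and 46.1 FPKM, with 1 library of each group standing above its other 2. The groups overlapped on both scales. The log2 fold change was 0.18 (SE 0.12, limma adjusted p = 0.21) and turned to -0.30 on the deposited FPKM, -0.15 with quantile normalization and -0.60 with TPM, where it was called lower.

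Dnajb1, the main inducible J-domain partner of HSP70 (chr8:83608193-83612653, plus strand), had 32.1, 31.9 and 38.3 FPKM in control libraries and 51.1, 52.2 and 53.8 FPKM in Al libraries. Every Al library was above every control library on both scales. It rose by a log2 fold change of 1.11 (SE 0.11, limma adjusted p = 6.22e-05), a fold of 2.16, on 3671 to 5514 reads per library. It was called on the deposited FPKM too (0.62) and not with TPM (0.32).

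Bag3, a nucleotide exchange factor that links HSP70 to small heat shock proteins and to selective autophagy (chr7:128523616-128546981, plus strand), had 30.3, 30.2 and 31.1 FPKM in control libraries and 41.6, 43.0 and 45.1 FPKM in Al libraries. The control values lay within 1 FPKM of each other, and all Al values were higher. Its log2 fold change was 0.99 (SE 0.09, limma adjusted p = 3.70e-05), with 0.50 on the deposited FPKM and 0.20 with TPM, both short of the call.

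Hspb1, the small heat shock protein also called HSP25 in the mouse (chr5:135887919-135889563, plus strand), was the lowest gene of the set in control libraries, at 0.611, 0.0765 and 0.348 FPKM, and had 2.33, 2.74 and 2.41 FPKM in Al libraries. The control values rested on 21, 3 and 14 reads and the Al values on 56, 54 and 46 reads. The groups did not overlap, and the spread among controls was wide, with the control 2 library the lowest. Hspb1 rose by a log2 fold change of 3.15 (SE 0.44, limma adjusted p = 0.000333) at a pseudocount of 0.1. The size depended on the pseudocount, at 1.62 with 1 and 3.69 with 0.01, and was 2.60 without the control 2 library. Pooled reads per scaled depth gave a ratio of 10.4, with a 95% exact binomial interval of 7.29 to 15.3 that covers counting error only. It was called higher under all 4 of these scalings, the median of ratios, deposited FPKM, TPM and quantile normalization. Of its 150-base windows 36.6% occur in transcripts of the pseudogenes Hsp25-ps1 and Gm9817, so reads shared with these cannot be placed.

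Hsp90aa1 is the inducible and Hsp90ab1 the constitutive cytosolic HSP90. Hsp90aa1 (chr12:110690605-110702728, minus strand) had 206, 222 and 261 FPKM in control libraries and 242, 229 and 221 FPKM in Al libraries. These overlapped as deposited, and after scaling all Al values were above all control values. Its log2 fold change of 0.50 (SE 0.15, limma adjusted p = 0.019) had a p under the threshold but a fold short of it, and the value was 0.01 on the deposited FPKM, -0.21 with quantile normalization and -0.29 with TPM. With 1 library left out it was called without the control 3 library (0.59) or the Al 3 library (0.61), while without each other library its limma adjusted p lay above the threshold of 0.05, at 0.092 and 0.087 without control 1 and control 2 and at 0.063 and 0.064 without Al 1 and Al 2.

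Hsp90ab1 (chr17:45567775-45573271, minus strand) was the most abundant of the set in every library, with 1159, 1157 and 1279 FPKM in control libraries and 1708, 1746 and 1572 FPKM in Al libraries. Al was above control in every library on both scales. It rose by a log2 fold change of 0.97 (SE 0.25, limma adjusted p = 0.0086), a fold of 1.96. The call was lost without the control 2 library (limma adjusted p = 0.057), on the deposited FPKM (0.48) and with TPM (0.18), and quantile normalization turned the value to -0.46. It was also lost when library numbers entered the fit as a replicate block (limma adjusted p = 0.0988).

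Within each library, Hsp90aa1 came to 17.8, 19.2 and 20.4% of Hsp90ab1 in control cells and to 14.2, 13.1 and 14.1% in Al-treated cells. The means were 19.1 ± 1.31% and 13.8 ± 0.571% (SD, n = 3 each), with a log2 difference of -0.47. The exact two-sided permutation p was 0.1, the smallest possible here. After quantile normalization it turned to 0.25. In both the HSP70 and the HSP90 pair the inducible form was thus a smaller share of its constitutive partner in Al libraries. On FPKM as deposited this held for all 3 Al libraries against any control library, and the direction turned in both pairs with quantile normalization. Such separation, in either direction, was common: 38 of the 45 pairs of genes within the set had ratios that did not overlap between groups. Of all genes tested, 59.8% had a ratio to Hspa8 that did not overlap. The lack of overlap alone thus does not set the HSP70 and HSP90 pairs apart. Of the 150-base windows of Hsp90aa1 36.2% occur in transcripts of other genes, among them Gm12346 and Gm5844, and none of those of Hsp90ab1 do.

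**Figure D2:**
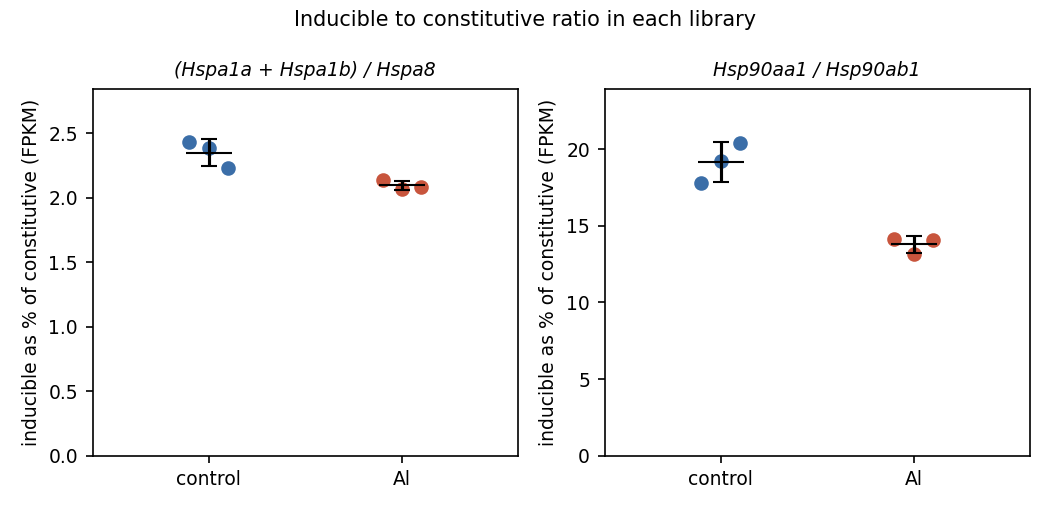
Inducible HSP70 (left) and HSP90 (right) as a percentage of the constitutive form in each library, with mean and SD (n = 3) and axes from 0. All 3 Al points lie below all 3 control points in both panels, on FPKM as deposited; the differences turned with quantile normalization.

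**Figure D3:**
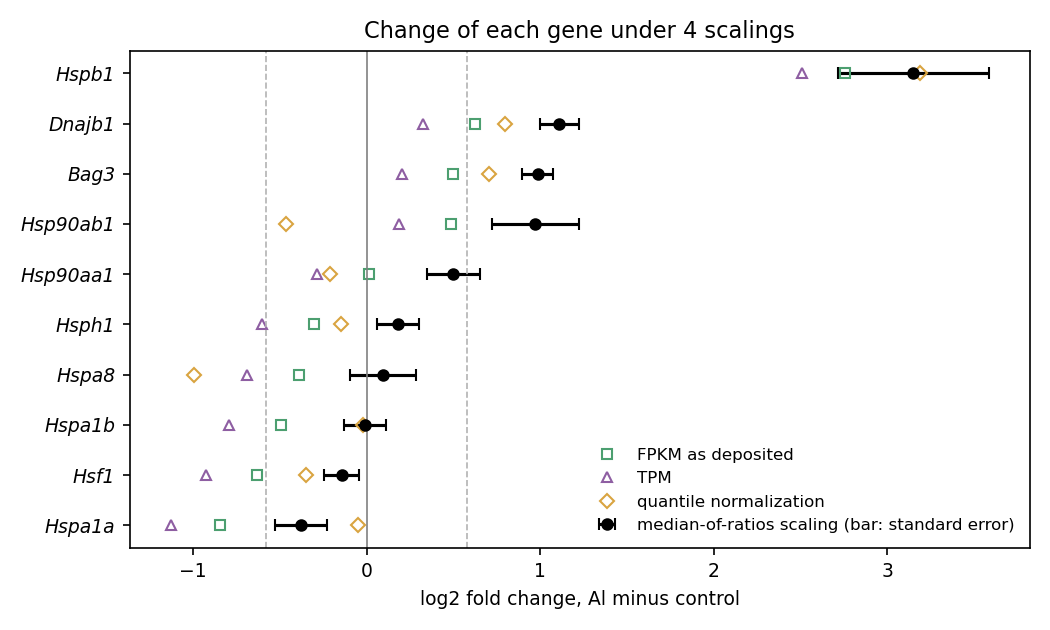
log2 fold change of each gene, Al minus control, with the standard error for the median-of-ratios scaling (black) and values for 3 other scalings; dashed lines mark the fold threshold of 0.58. Hspb1 lies to the right of the line under all 4. Hsp90ab1 turns with quantile normalization, Hsp90aa1 with that and TPM, and Hspa8 and Hsph1 with all 3 other scalings.

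Set against Hspa8 within each library, the log2 difference, Al minus control, was 3.68 for Hspb1, 1.02 for Dnajb1, 0.89 for Bag3, 0.88 for Hsp90ab1 and 0.40 for Hsp90aa1, each with no overlap between groups. It was -0.49 for Hspa1a, -0.24 for Hsf1 and -0.11 for Hspa1b, also with no overlap, and 0.09 for Hsph1, with overlap. The groups nearly touched for Hsf1, with log2 ratios of -4.5245 in control 3 and -4.5255 in Al 3. The same held for Hspa1b, at -5.729 in control 3 and -5.736 in Al 1. The value of Hspb1, whose control 2 library held 3 reads, was 2.87 without that library and 4.36 without the control 1 library. Over all genes tested 59.8% had a ratio to Hspa8 that did not overlap between groups. These differences describe the libraries, as 3 against 3 cannot pass an exact test, and they were taken on FPKM as deposited. With quantile normalization the log2 fold change of Hspa8 (-0.99) was below those of Hsf1 (-0.35), Hspa1a (-0.05) and Hspa1b (-0.02), so these 3 directions turned.

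Levels were dominated by Hsp90ab1, Hspa8 and Hsp90aa1, in that order in all 6 libraries. Together they made up 93.0 ± 0.0347% of the summed FPKM of the 10 genes in control cells and 93.5 ± 0.651% in Al-treated cells (SD, n = 3 each). The share of Hsp90ab1 in the sum was 51.2 ± 1.14% in control and 63.2 ± 1.16% in Al-treated cells, and that of Hspa8 was 32.0 ± 0.855% and 21.6 ± 0.860%. The 10 genes held 0.626 ± 0.0361% of all FPKM in control cells and 0.575 ± 0.0186% in Al-treated cells. Below these 3 genes the order changed. Dnajb1 was 5th or 6th in control libraries and 4th in every Al library, Hsph1 was 4th and then 5th or 6th, and Bag3 was below Hsf1 in every control library and above it in every Al library. Hspb1 was below Hspa1a in every control library and above it in every Al library.

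**Figure D4:**
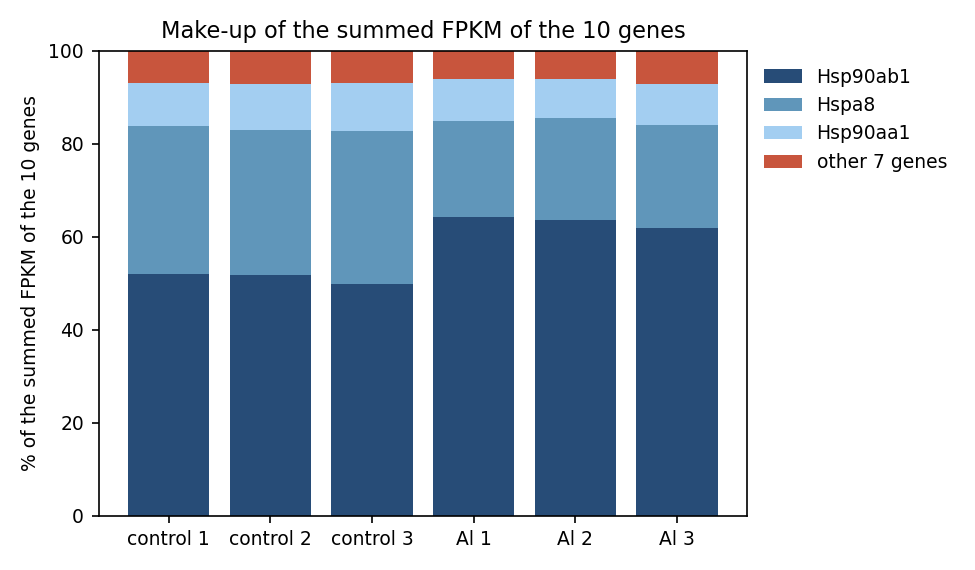
Make-up of the summed FPKM of the 10 genes in each library, in percent, with bars from 0 to 100. Hsp90ab1 fills 49.9 to 52.0% of the control bars and 62.0 to 64.2% of the Al bars, and the other 7 genes together fill a thin upper band.

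The rest of the chaperone system was described by 9 lists that leave the 10 genes out, under the median-of-ratios scaling. Changes given for their genes are on the log2 scale, and those said to rise or fall had limma adjusted p between 1.39e-05 and 0.00991. Of the HSF family and binding proteins 4 were tested, with 2 higher and 1 lower and a median log2 fold change of 0.68. Hsbp1, which binds HSF1, rose by 1.07 and Hsf4, known from the lens, fell by 0.62. Of the other HSP70 and HSP110 family genes 8 were tested, with 2 higher and 3 lower and a median of -0.10. Hspa13 rose by 1.35 and the ribosome-associated Hspa14 by 1.04, while Hspa2, known from the testis, fell by 1.19 and Hspa4l by 0.69. The Hspa4l call was lost without the control 3 library (-0.54), without the Al 1 library (-0.57) and with the length correction (-0.47). That of Hsf4 was lost without the Al 2 library (-0.576), with a pseudocount of 1 (-0.54) and with quantile normalization (-0.40). The Hsbp1 call was lost on the deposited FPKM (0.578), with quantile normalization (0.577) and with TPM (0.28). Hspa14 lost its call on the deposited FPKM (0.55) and with TPM (0.25), and Hspa13 with TPM (0.57). The HSP110 gene Hspa4 was at -0.09 (SE 0.11) and did not pass.

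Organelle chaperones, 7 tested, had 4 higher and 0 lower, with a median of 0.59. Hspa5, the HSP70 of the endoplasmic reticulum, rose by 0.83, Hsp90b1, its HSP90, by 0.77, Hspe1, the mitochondrial co-chaperonin, by 0.79 and Hyou1 by 0.59. The Hyou1 call, just past the fold threshold, was lost without control 1 (0.578), control 2 (0.53) or Al 1 (0.56), with upper quartile scaling (0.46) and with the GC correction (0.50), and that of Hspe1 with the length correction (0.42). The mitochondrial HSP70 gene Hspa9 was at 0.25 (SE 0.16) and did not pass, and turned to -0.24 on the deposited FPKM, -0.54 with TPM and -0.47 with quantile normalization. None of the 7 was called higher on the deposited FPKM, with TPM or with quantile normalization, where 13.5%, 8.85% and 21.5% of all genes were, and Hsp90b1 and Hyou1 turned negative with TPM. The TRiC chaperonin and prefoldin, which fold actin and tubulin, had 11 of 14 higher and 0 lower, with a median of 0.76. Pfdn1 rose by 1.36, Pfdn2 by 1.25, Pfdn5 by 1.06 and Cct7 by 0.95. On the deposited FPKM 2 of the 14 were called higher and with TPM none, against 13.5% and 8.85% of all genes. With quantile normalization 3 of the 14 were, against 21.5% of all genes, and the median was 0.11.

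Of the other small heat shock proteins 6 were tested, with 1 higher and 1 lower and a median of -0.10, and Cryab (alpha B-crystallin) rose by 1.03. The Cryab call was lost on the deposited FPKM (0.54), where its groups overlapped, and with TPM (0.24). Its value ranged from 0.78 to 1.38 with 1 library left out. Among 17 other J-domain proteins 6 were higher and 4 lower, with a median of 0.30. On the deposited FPKM the counts were 3 and 6, with TPM 2 and 7 and with quantile normalization 5 and 5. Dnajb2 fell by 1.79, Dnajb14 by 1.45 and Dnajb5 by 1.04, and Dnajc9, a histone chaperone, rose by 1.12. Of 9 other nucleotide exchange factors and BAG proteins 4 were higher and 0 lower, with a median of 0.14. These counts became 3 and 4 on the deposited FPKM, 1 and 5 with TPM and 4 and 1 with quantile normalization. Bag4 rose by 1.45, Bag1 by 1.26 and the mitochondrial exchange factors Grpel1 and Grpel2 by 1.22 and 0.99. The Grpel2 call was lost on the deposited FPKM (0.51). With TPM those of Bag1 (0.47), Grpel1 (0.43) and Grpel2 (0.21) were lost. Of all genes tested, 13.5% were called higher and 41.3% lower on the deposited FPKM. The shares were 8.85% and 52.2% with TPM and 21.5% and 23.3% with quantile normalization.

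HSP90 co-chaperones showed 2 higher and 5 lower of 25, with a median of 0.12. Fkbp5, a glucocorticoid-responsive immunophilin, fell by 1.57, Ahsa2 by 1.41 and Pih1d1 by 1.08, and Nudcd3 rose by 1.08. Of 23 other genes listed as part of the HSF1 programme 9 were higher and 4 lower, with a median of 0.30. Jun, a subunit of the AP-1 transcription factor, rose by 1.67, and Chac1, also known as an ATF4 target, fell by 1.32. For the list counts with the median-of-ratios scaling the background is 25.5% higher and 23.7% lower of all genes tested, and the lists overlap in part. On the deposited FPKM the list medians ran from -0.58 to 0.27. With TPM the medians of all 9 lists were negative, from -0.87 to -0.03, so no list median above 0 kept its direction under both. The median of all genes tested was itself -0.43 on the deposited FPKM and -0.72 with TPM. These scalings divide each library by 1 factor, so the signs of the list medians carry that shift and do not test the lists. With TPM the counts became 1 higher and 9 lower for this last list and 0 higher and 15 lower for the HSP90 co-chaperones, where 8.85% of all genes were called higher and 52.2% lower.

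**Figure D5:**
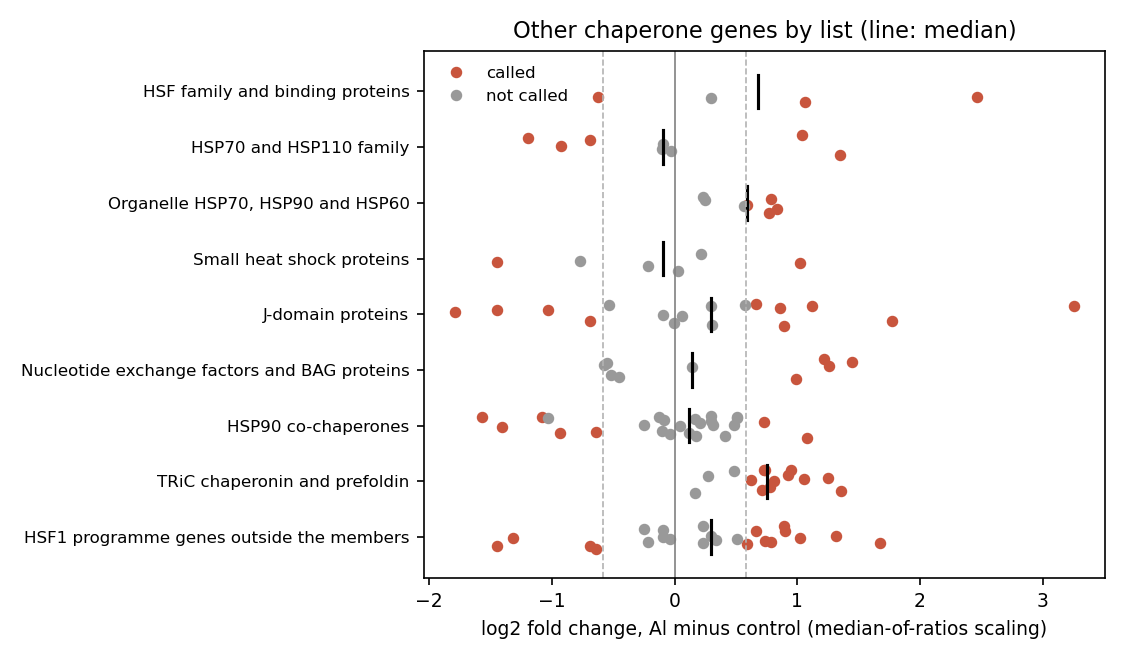
log2 fold change, Al minus control, of each tested gene in 9 lists that leave the 10 genes out (red, called; grey, not called; black line, list median; dashed lines, the fold threshold of 0.58). TRiC and prefoldin genes lie to the right of 0, at 0.17 to 1.36, while HSP90 co-chaperones run from -1.57 to 1.08.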

How the data were processed

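RNA of 3 control and 3 Al-treated HT22 cultures was sequenced as the input libraries of an immunoprecipitation study, with paired reads of 150 bases. The authors deposited FPKM values per gene, as their normalized unit. Reads were mapped with HISAT2, and the remaining steps differ between sources: the methods name GRCm38, Trimmomatic and SortMeRNA, and the submitters' processing notes name GRCm39, fastp and HTSeq. Coordinates here are GRCm38 (GENCODE M21).

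Whole reads were recovered from the steps of the FPKM values for 17688 of 17688 genes above 0, to within 0.0001 reads. The main test was limma 3.58.1 (R 4.3.3), with a trended variance, on log2 of FPKM divided by a size factor (0.802 to 1.21) plus 0.1, for genes averaging 0.1 FPKM or more, with Benjamini-Hochberg adjustment over 12889 genes, so fold changes of low genes are understated. Ratios were tested by an exact permutation of libraries. The recovered reads were also tested with limma voom. Alternatives were other scalings, pseudocounts and filters, a replicate block, leave-one-out fits, and corrections for length and, chosen after seeing the data, GC content. The functions were tested on simulated data. Library numbers did not pair: the deviations of same-numbered libraries correlated at -0.033, -0.026 and -0.073. Members and lists were chosen with earlier results of these data known. Members are all 10 genes, and from each list at most 4 called genes with the largest change and a mean of at least 1 FPKM were named, plus Hspa4, Hspa5, Hspa9 and Hsp90b1 whatever their values. One gene that this rule names is not reported here. Columns matched to no sample numbered 0.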

Additional observations from a re-analysis of the deposited data

How the results depend on the processing

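Results in the report depended mainly on scaling. Relative to the median-of-ratios scaling, the median of all genes moved by -0.46 on the deposited FPKM, -0.75 with TPM and -0.13 with upper quartile scaling. Of all genes, 3291 were higher and 3053 lower. These became 1736 and 5321 on the deposited FPKM, 1141 and 6734 with TPM, and 2028 and 1784 when the log2 fold change had to exceed 1. The count of the 10 genes called higher was 4, and 2 on the deposited FPKM, 1 with TPM and 2 with a log2 fold change over 1. The count called lower was 0, and 2 on the deposited FPKM, 5 with TPM and 1 with quantile normalization. With limma voom on the recovered reads, 3209 genes were higher and 3189 lower, and 4 and 0 of the 10. Leaving out 1 library gave 3 to 5 called higher and 0 called lower. Among the genes named in the report, values that changed sign, with a call either before or after the change, included Hspa8 at -0.69 with TPM and -0.99 with quantile normalization, Hsp90ab1 at -0.46 with quantile normalization, and Hsph1 at -0.60, Hsp90b1 at -0.017 and Hyou1 at -0.19 with TPM. The cause was not tested beyond these shifts.

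The HSP70 ratio difference of -0.16 was -0.49 for Hspa1a alone and -0.11 for Hspa1b alone, and ranged from -0.20 to -0.14 when 1 library was left out. The HSP90 difference of -0.47 ranged from -0.52 to -0.42. With quantile normalization of the values, an alternative chosen after seeing the data, the differences reversed to 0.97 for HSP70 and 0.25 for HSP90, since that method does not keep ratios within a library.

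With a replicate block, 3 genes were called higher, since Hsp90ab1 lost its call (limma adjusted p = 0.0988 at 0.97). The replicate block left Dnajb1, Bag3 and Hspb1 called. Paired by replicate number, the exact p of both ratios was 0.25, the smallest 3 pairs allow. Hspb1, at 3 to 21 reads per control library, is the gene most limited by depth.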

Other observations

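The exon length implied by the FPKM values was 2798 bases for Hspa1a and 2810 bases for Hspa1b. These equal the spans of the 2 genes in the RefSeq annotation of GRCm38, while the GENCODE M21 transcripts are 2967 and 2803 bases long.

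In the order of log2 fold changes over all 12889 genes tested, Hspb1 stood at percentile 99.6, Dnajb1 at 85.8, Bag3 at 83.0, Hsp90ab1 at 82.7, Hsp90aa1 at 68.4, Hsph1 at 56.4, Hspa8 at 52.7, Hspa1b at 48.6, Hsf1 at 43.4 and Hspa1a at 34.1. Less the median of all genes, the log2 fold change of Dnajb1 was 1.08 with the median-of-ratios scaling, 1.06 on the deposited FPKM and 1.04 with TPM. Those of Bag3 were 0.96, 0.93 and 0.92, and those of Hspa1a were -0.41, -0.41 and -0.41. These scalings divide each library by 1 factor, so that such values are close to each other by construction. With quantile normalization the values were 0.82 for Dnajb1, 0.73 for Bag3 and -0.02 for Hspa1a.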
